A study of Sus scrofa with 12 samples.

Results

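Mucins and the enzymes that build sugar chains were followed through the culture of pig oviduct epithelial cells. Members were taken by gene symbol: all genes named as mucins (MUC) and as enzymes of the GALNT, C1GALT1, GCNT, B3GNT, B4GALT, B3GALT, ST3GAL, ST6GAL, ST6GALNAC, ST8SIA, FUT, CHST, MAN1, MAN2 and MGAT families. The rule found 75 genes among 30461 gene rows, of which 17202 carry no symbol and could not be matched. A filter on low counts left 63 of the 75 for testing, out of 14070 genes tested in all, and the other 12 are described at the end. Only 2 mucins carried a symbol, MUC1 and MUC20. The remaining mucins and C1GALT1, the core 1 synthase, were not analysed here.

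The series measured bulk RNA of Sus scrofa oviduct epithelial cells by sequencing from the poly(A) end of transcripts, in 12 libraries forming 3 groups of 4. The first group, called fresh cells here, is labelled as scraped single cells. The other libraries came from spheroids, clusters of cells grown in 3 dimensions, which were formed either in DMEM/F12, a common basal medium, or in a medium labelled incubation medium. Library titles carry FBS for the first kind of spheroid and Diff for the second, and neither term is explained. No genetic change is named for any group, and the labels used here give no breed, age, cycle stage or number of pigs, no time in culture and no other agent. They do not say that the libraries of a group came from separate animals or cultures, so the p-values measure only the spread between these libraries, which may be technical.

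Mucins are proteins with long stretches of serine and threonine that carry dense sugar chains. Each such O-glycan starts when a GALNT enzyme adds N-acetylgalactosamine in the Golgi, is extended and branched by core enzymes, and is capped with sialic acid, fucose or sulfate. N-glycans are instead added as a block in the endoplasmic reticulum, trimmed by mannosidases and rebuilt into branched chains by MGAT enzymes. In the oviduct, the glycans of the epithelial surface and of its secretions meet sperm, eggs and embryos, and sperm bind to oviduct cells through sugar chains.

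Total gene counts per library ranged from 5045187 to 8603774. Levels are given as CPM, counts scaled to a common library size by the TMM method, and differences as log2 fold changes of spheroids over fresh cells unless said otherwise. A gene is said to have risen or fallen where edgeR's quasi-likelihood test gave a q under 0.05, q being the p adjusted by the Benjamini-Hochberg method over all 14070 genes. The labelled cell type was checked against markers. Epithelial genes (6 symbols of a list of 9, on 7 rows, MUC1 among them) summed to 3879.8 to 4533 CPM in fresh cells, 6551 to 7940.3 in DMEM/F12 spheroids and 4599 to 6615 in incubation medium spheroids. Of the 7 rows, 6 rose and 1 fell in DMEM/F12, and 5 rose and 1 fell in incubation medium. For markers of other states, some sums separated spheroids from fresh cells and some overlapped. Secretory cell genes (OVGP1, SLPI and LTF) summed to 19071 to 30111 CPM in fresh cells against 482 to 1455 and 591 to 1614 in DMEM/F12 and incubation medium spheroids, and all 3 fell in both. The 7 multiciliated cell genes found summed to 1087 to 1269.7, 131 to 327 and 132 to 237 CPM in the same order, and all 7 fell in both. The 8 proliferation genes found summed to 38.7 to 52.2, 326 to 372 and 338 to 533 CPM, and all 8 rose in both. Stromal genes summed to 58.5 to 92.5, 11.2 to 34 and 5.78 to 11.3 CPM, and of 4 tested 2 fell in DMEM/F12 and 4 in incubation medium. Smooth muscle genes summed to 199 to 331, 1047 to 1190.0 and 227 to 533 CPM, most of it TAGLN, with DES at or near 0. Of the 3 smooth muscle genes tested, 1 rose and 1 fell in each medium. Endothelial genes summed to 41.6 to 57.4, 136 to 252 and 91.2 to 148 CPM, with VWF at or near 0. Of the 3 endothelial genes tested, 2 rose and 1 fell in each medium. Leukocyte genes summed to 448 to 497, 415 to 480 and 503 to 602 CPM, nearly all of it CD79A, with MS4A1 at or near 0 and PTPRC at 7.01, 2.54 and 1.21 CPM. Of the 3 leukocyte genes tested, 1 fell in DMEM/F12, and 1 rose and 1 fell in incubation medium. The part of these markers in the results below was not tested, and in bulk RNA fewer cells of a type cannot be told apart from less RNA per cell.

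Mucins and glycan enzymes changed in both directions in spheroids. Both mucins rose in both media, while 7 and 10 of the 13 tested sialyltransferases and 3 and 4 of the 5 O-glycan core genes fell in DMEM/F12 and incubation medium. In DMEM/F12 spheroids 24 of the 63 tested members rose against fresh cells and 25 fell, beside 35.1% and 35.7% of all tested genes. At least 2-fold changes were 19 rises and 16 falls among the 63, beside 2118 and 2858 of all 14070 tested genes (15.1% and 20.3%). The 4 libraries of each group did not overlap for 48 members, beside 65.4% of all genes. In incubation medium spheroids 21 members rose and 29 fell, beside 35.8% of all genes in each direction, with 11 rises and 20 falls of at least 2-fold, beside 15.3% and 21.5%. The groups did not overlap for 47 members, beside 64.9% of all genes. The share of members called in either direction was 77.8% and 79.4%, near the background of 70.7% and 71.7%. The median log2 fold change over the 63 members was -0.18 in DMEM/F12 and -0.31 in incubation medium, beside -0.0144 and -0.0071 over all tested genes. Both comparisons use the same 4 fresh libraries. As a share of all gene counts, the 75 members took 0.21 to 0.232% in fresh cells, 0.336 to 0.358% in DMEM/F12 spheroids and 0.286 to 0.302% in incubation medium spheroids, so the 3 ranges did not overlap. That share weighs members by level, so abundant ones count most. MUC1 and MUC20 alone summed to 144 to 180, 511 to 622 and 505 to 552 CPM in the same order. All 75 summed to 2187 to 2289, 3153 to 3496 and 2893 to 3086 CPM. Deposited counts were not whole in at least 1 library for 32 of the tested members, and such levels are uncertain. This was so in 50% or more of the libraries for GCNT1, FUT8, ST3GAL2, MUC20, MUC1, B4GALT5, B3GALT1, GALNT10 and GALNT11.

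**Figure D1:**
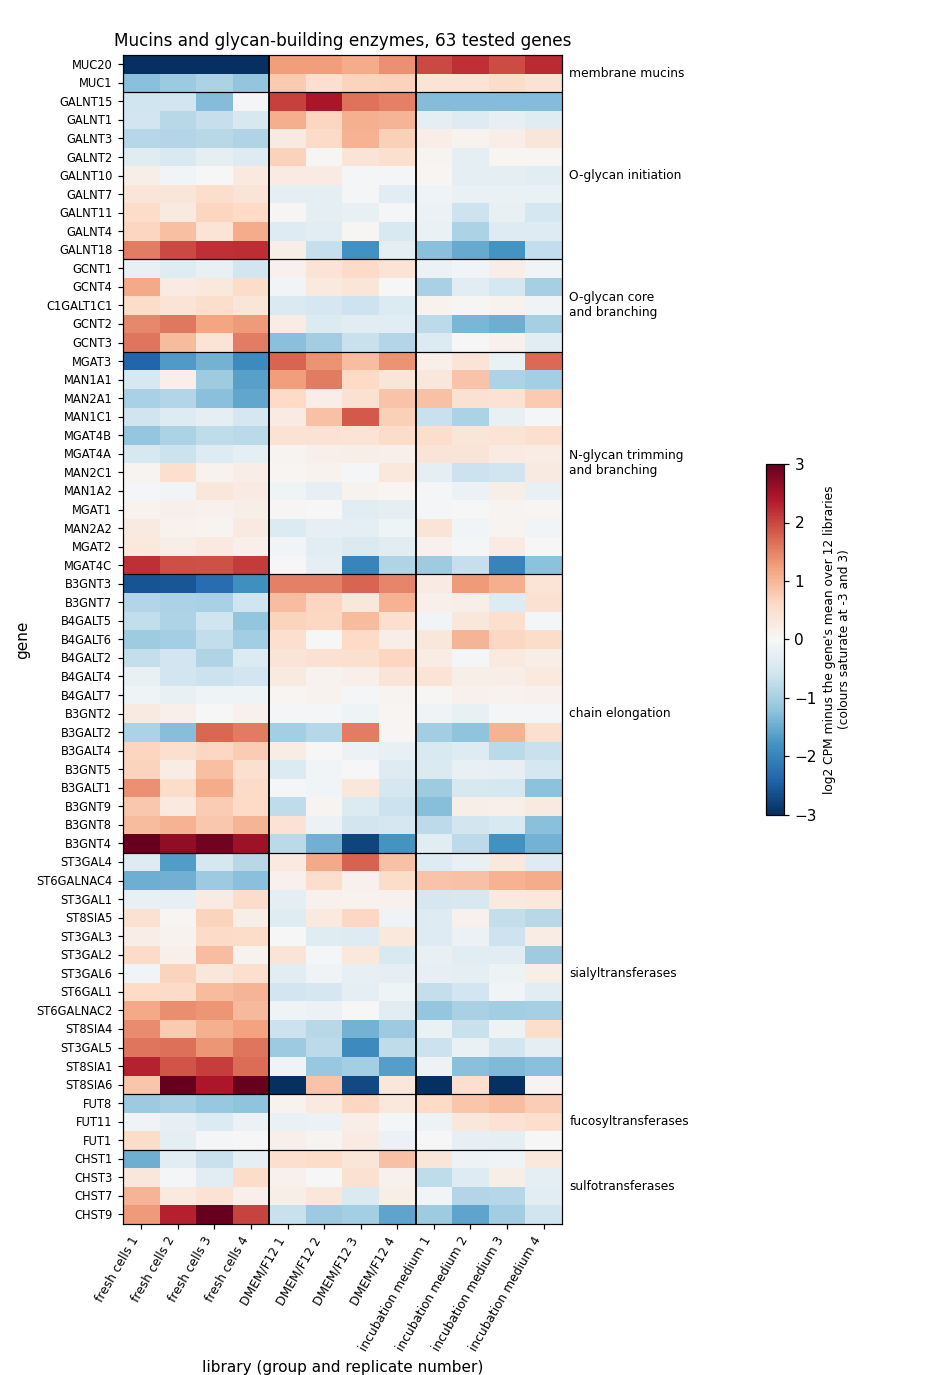
Level of the 63 tested members in each of the 12 libraries (columns, by group and replicate), drawn as log2 CPM minus the member's mean over all libraries, with members (rows) ordered by role. Colours stop at -3 and 3. MUC20 and MUC1 are below their mean in all 4 fresh libraries, and B3GNT4 and MGAT4C above it.

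Both mucins rose in both kinds of spheroid. MUC1 (ENSSSCG00025034775), a transmembrane mucin of the apical surface of many epithelia, stood at 144, 161, 179 and 152 CPM in the 4 fresh libraries. It reached 595, 484, 548 and 554 CPM in DMEM/F12 spheroids and 459, 458, 508 and 469 CPM in incubation medium spheroids. Every spheroid library lay above every fresh library. The group means were 159 ± 15.1, 545 ± 45.9 and 474 ± 23.5 CPM (SD, n = 4 each), and the log2 fold change against fresh cells was 1.78 (SE 0.09, q = 9.85e-10) in DMEM/F12 and 1.57 (SE 0.09, q = 2.62e-09) in incubation medium. MUC20 (ENSSSCG00025032638), another membrane mucin, was nearly absent from fresh cells, at 0.522, 1.08, 1.12 and 0.784 CPM. In DMEM/F12 spheroids its 4 libraries held 26.8, 26.8, 24.6 and 29.1 CPM and in incubation medium spheroids 45.1, 52.1, 43.8 and 53.9 CPM. The 3 groups were fully separated, with the incubation medium spheroids highest. Its log2 fold change was 4.91 (SE 0.18, q = 5.41e-11) in DMEM/F12 and 5.77 (SE 0.17, q = 8.54e-12) in incubation medium. Counts were not whole in 50% of the libraries for MUC1 and in 58.3% for MUC20. MUC1 is one of the epithelial markers, so its rise is not independent of that list's sum.

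**Figure D2:**
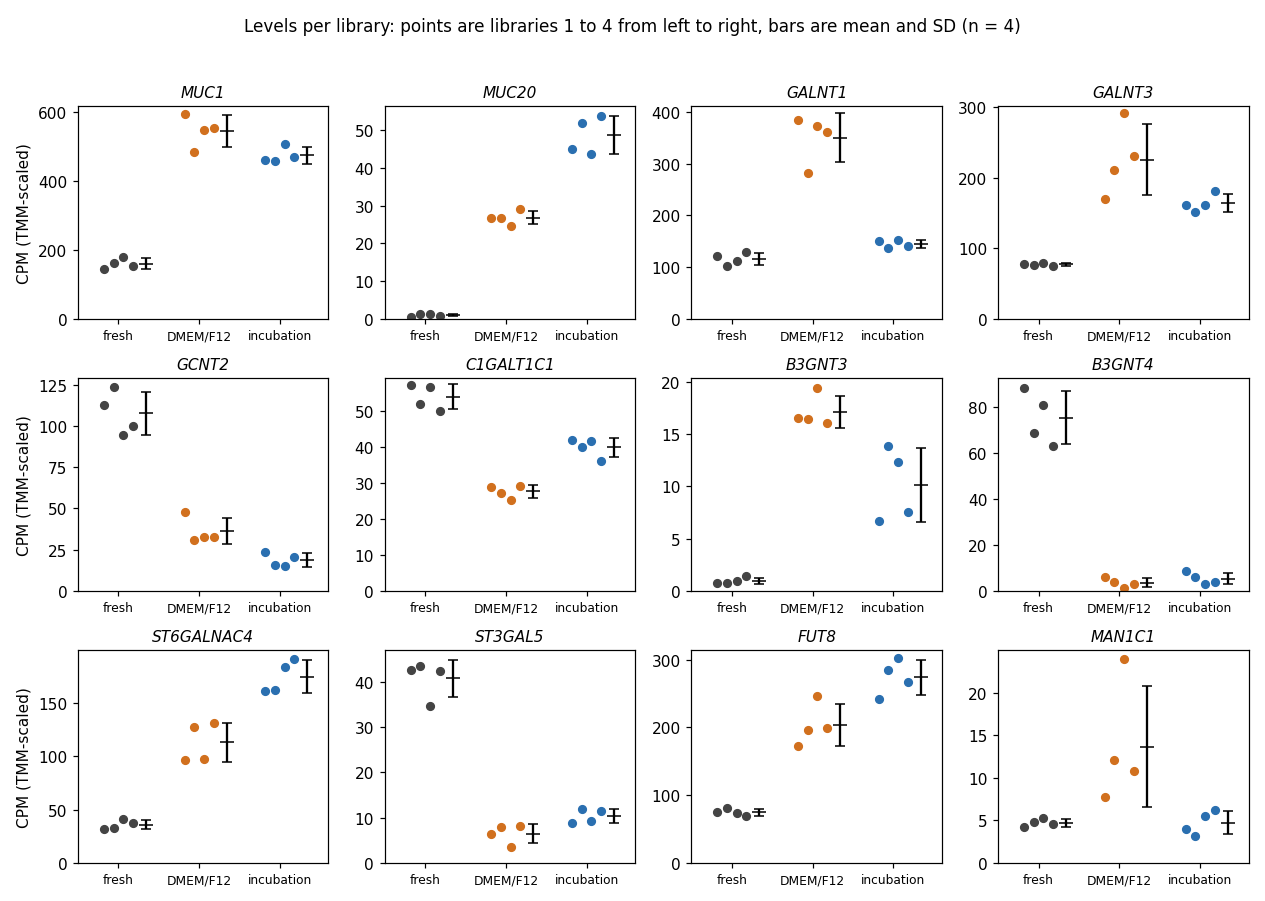
CPM on linear axes from 0 for 12 members, with a point for each of the 4 libraries of a group (replicates 1 to 4 from left to right) and the mean and SD beside them. MUC1 and MUC20 are lowest in the fresh libraries and B3GNT4 is highest there, while GALNT1 and MAN1C1 are highest in DMEM/F12 spheroids.

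The GALNT enzymes, which start O-glycans, divided. Of 9 tested, 4 rose and 4 fell in DMEM/F12 spheroids, and 3 rose and 5 fell in incubation medium spheroids. The 5 falls include GALNT15, which passed the test although both groups were at the floor. The median log2 fold change was 0.0033 and -0.59. Counts of this family and of those below stand beside 35.1% of all tested genes that rose and 35.7% that fell in DMEM/F12. In incubation medium the share of all genes was 35.8% each way. Such counts describe the families and are no test of them. GALNT1 (ENSSSCG00025052671), a broadly expressed initiating enzyme, stood at 121, 102, 111 and 129 CPM in fresh cells, 385, 282, 373 and 362 in DMEM/F12 and 149.6, 137, 152 and 139.6 in incubation medium spheroids. All spheroid libraries exceeded the fresh ones, and those in DMEM/F12 lay above all others. The log2 fold changes were 1.60 (SE 0.11, q = 1.17e-08) and 0.32 (SE 0.11, q = 0.0131) in DMEM/F12 and incubation medium. GALNT3 (ENSSSCG00025047872), known for glycosylating the phosphate hormone FGF23, held 77.5, 76, 78.5 and 74.9 CPM in fresh cells, 169.8, 210.4, 291 and 230.3 in DMEM/F12 and 161, 151, 161 and 181 in incubation medium spheroids, with no overlap between fresh cells and either kind of spheroid. It rose by 1.55 (q = 1.16e-07) and 1.09 (q = 3.67e-06). GALNT2 (ENSSSCG00025054382), also broadly expressed, held 114, 106, 118 and 111 CPM in fresh cells, 234, 150.2, 191 and 203 in DMEM/F12 and 154, 119.6, 151 and 152 in incubation medium, and rose by 0.80 (q = 4.15e-05) and 0.36 (q = 0.0157). The lowest spheroid library, incubation medium replicate 2, stayed just above the highest fresh one.

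Among the GALNT genes that fell, GALNT18 (ENSSSCG00025028937) had the largest change. Its fresh libraries held 17.4, 23.7, 27.7 and 28.2 CPM, those of DMEM/F12 spheroids 6.57, 3.48, 1.46 and 4.8 and those of incubation medium spheroids 2.27, 1.87, 1.48 and 3.36. Fresh cells were separated from all spheroids, and replicate 3 was the lowest of each spheroid group. The log2 fold change was -2.56 (SE 0.32, q = 5.18e-06) in DMEM/F12 and -3.43 (SE 0.34, q = 6.15e-07) in incubation medium. GALNT7, which prefers peptides that already carry a sugar, fell from a mean of 82.3 CPM to 52.7 and 54.7 (log2 -0.64 and -0.59). GALNT11 fell from 65.7 CPM to 41.6 and 35, and GALNT4 from 6.41 to 2.92 and 2.56. GALNT10, which acts on glycosylated peptides like GALNT7, had means of 10.1, 10.1 and 8.14 CPM and passed the test in neither medium. Its difference in incubation medium, -0.31 (q = 0.0861), passed only without incubation medium replicate 1 (-0.39, q = 0.038) and with counts thinned to the smallest library, -0.41 (q = 0.0384). Over all 19 alternatives its q ran from 0.038 to 0.269. GALNT15 had no more than 3 counts, the floor, in any fresh or incubation medium library. It held 2.55, 3.48, 1.85 and 1.68 CPM in DMEM/F12 spheroids, at least 4.33-fold higher than the floor in fresh cells, and no fold is given between incubation medium spheroids and fresh cells.

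Of the 5 enzymes and helpers that form and branch O-glycan cores, only GCNT1 rose. In DMEM/F12 3 fell and in incubation medium 4 fell, with medians of -0.97 and -1.36. C1GALT1C1 (ENSSSCG00025010126), the chaperone COSMC without which the core 1 synthase does not fold, held 57.1, 51.8, 56.7 and 49.98 CPM in fresh cells, 28.8, 27.2, 25.3 and 29.1 in DMEM/F12 and 41.8, 39.8, 41.6 and 36 in incubation medium spheroids. The 3 groups were fully separated, with fresh cells highest and DMEM/F12 spheroids lowest. The log2 fold change was -0.97 (SE 0.08, q = 1.72e-07) in DMEM/F12 and -0.44 (SE 0.08, q = 0.000285) in incubation medium. GCNT2 (ENSSSCG00025060936), the I-branching enzyme, held 113, 124, 94.4 and 99.8 CPM in fresh cells, 47.8, 31, 32.7 and 32.4 in DMEM/F12 and 23.7, 15.9, 14.8 and 20.4 in incubation medium. Here too no libraries overlapped between groups, with incubation medium spheroids lowest. The changes were -1.58 (q = 7.52e-07) and -2.52 (q = 1.29e-08). GCNT3 (ENSSSCG00025047369), the mucin-type core 2 and core 4 enzyme, went from 53.3, 33.9, 23 and 50.8 CPM in fresh cells to 7.06, 8.25, 10.8 and 9.37 in DMEM/F12 and 12.9, 17.1, 19 and 13.7 in incubation medium, with log2 fold changes of -2.18 (q = 1.80e-06) and -1.36 (q = 0.0001). Its fresh libraries varied more than 2-fold among themselves but stayed above all spheroids.

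GCNT1 (ENSSSCG00025031119), the leukocyte-type core 2 enzyme, held 54.5, 49.7, 54.4 and 43.7 CPM in fresh cells, 69.7, 85, 95.9 and 85.8 in DMEM/F12 and 56.8, 60.1, 73.4 and 60.2 in incubation medium spheroids. It rose in DMEM/F12, by 0.73 (q = 4.73e-05). The smaller rise in incubation medium, 0.31 (q = 0.0265), lost its call without fresh replicates 2 or 4 or incubation medium replicate 3 (left out one at a time: 0.24 to 0.30, q = 0.0544 to 0.0825), and over the 19 alternatives its q ran from 0.00964 to 0.0825. Counts of GCNT1 were not whole in 91.7% of the libraries. GCNT4, a further core 2 enzyme, had means of 6.3, 4.51 and 2.43 CPM, and fell in incubation medium, -1.38 (q = 0.000276), but did not pass in DMEM/F12, -0.49 (q = 0.089).

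Of 12 tested N-glycan trimming and branching genes, 6 rose and 4 fell in DMEM/F12 spheroids, and 4 rose and 2 fell in incubation medium spheroids. Without fresh replicate 2 the last count was 1. The medians were 0.23 and -0.043. MGAT4B (ENSSSCG00025058131), which starts a further antenna on complex N-glycans, held 89.6, 104, 117 and 114 CPM in fresh cells, 271, 269, 265 and 295 in DMEM/F12 and 288, 258, 266 and 285 in incubation medium. It rose by 1.37 (SE 0.09, q = 9.66e-09) and 1.37 (SE 0.09, q = 9.14e-09). MGAT4A (ENSSSCG00025030323), the enzyme of the same step, held 78.3, 70.5, 83 and 90.7 CPM, 115, 121, 124 and 122 CPM and 143, 143, 129 and 127 CPM in the same order. Its rises were 0.58 (q = 2.44e-05) and 0.75 (q = 2.05e-06), and for both genes all spheroid libraries exceeded all fresh ones. MAN2A1 (ENSSSCG00025049622), Golgi mannosidase II, which removes mannose before complex chains are built, went from 15, 16, 12.2 and 9.8 CPM to 44.5, 34, 40.8 and 53.5 in DMEM/F12 and 54.9, 40.6, 39.6 and 50.6 in incubation medium. It rose by 1.70 (q = 8.87e-07) and 1.81 (q = 4.71e-07), again without overlap. MGAT3, which adds the bisecting N-acetylglucosamine, rose from a mean of 0.647 CPM to 8.15 and 5.07 (log2 3.63 and 2.93). Its fresh level was close to the floor of 0.522 to 0.588 CPM, so the size of these folds is uncertain.

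Falls in this family were led by MGAT4C (ENSSSCG00025044359), a relative of MGAT4A and MGAT4B. It held 55, 45.9, 44.7 and 51 CPM in fresh cells, 11.9, 9.53, 2.78 and 6.12 in DMEM/F12 and 5.49, 7.21, 2.71 and 4.84 in incubation medium spheroids. All spheroid libraries lay far below the fresh ones, with replicate 3 lowest in each medium. The log2 fold changes were -2.68 (SE 0.30, q = 2.18e-06) and -3.28 (SE 0.32, q = 4.84e-07). MGAT1 (ENSSSCG00025002511), which starts all hybrid and complex N-glycans, held 77.5, 80.2, 79.1 and 82.5 CPM in fresh cells, 74.6, 72.4, 56.9 and 59 in DMEM/F12 and 69.3, 71.7, 76.6 and 75.5 in incubation medium. Its fall in DMEM/F12, -0.28 (q = 0.0144), lost its call without DMEM/F12 replicates 3 or 4 (left out one at a time: -0.21 to -0.20, q = 0.0637 to 0.0685), with library totals as scaling, -0.20 (q = 0.0988), and with no filter, -0.21 (q = 0.103), and the q ran from 0.00439 to 0.103 over the 19 alternatives. MGAT2, which starts the second antenna, fell in DMEM/F12, -0.53 (q = 0.000307), and did not pass in incubation medium, -0.15 (q = 0.19). The Golgi mannosidase MAN2A2 likewise fell in DMEM/F12, -0.45 (q = 0.00294), with -0.093 (q = 0.473) in incubation medium. MAN1C1 (ENSSSCG00025017996), a Golgi mannosidase of the first trimming step, held 4.18, 4.84, 5.24 and 4.51 CPM in fresh cells, 7.78, 12.1, 23.9 and 10.8 in DMEM/F12 and 3.94, 3.2, 5.54 and 6.18 in incubation medium. It rose in DMEM/F12, 1.53 (q = 0.000629), and did not pass in incubation medium, 0.0072 (q = 0.986).

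MAN1A1, another enzyme of the first trimming step, rose in DMEM/F12, 1.74 (q = 0.006). Its difference in incubation medium was 0.70 (q = 0.25), and 0.69 (q = 0.027) with the replicate number as a block, within 0.027 to 0.674 over the 19 alternatives. MAN1A2 passed in neither medium, at means of 30.2, 26.7 and 26.4 CPM. MAN2C1, a cytosolic mannosidase, fell in incubation medium, -0.51 (q = 0.024), and lost its call without fresh replicate 2 or incubation medium replicates 1, 2 or 3 (left out one at a time: -0.48 to -0.38, q = 0.0503 to 0.0868), with q of 0.000532 to 0.0868 over the alternatives.

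Galactosyl- and N-acetylglucosaminyltransferases that lengthen chains divided almost evenly. In each medium 7 of 15 tested rose and 6 fell, with medians of -0.18 in DMEM/F12 and -0.25 in incubation medium. B3GNT3 (ENSSSCG00025046509), which extends core 1 O-glycans, was close to the floor in fresh cells, at 0.696, 0.717, 0.935 and 1.37 CPM. It reached 16.5, 16.5, 19.5 and 16.1 CPM in DMEM/F12 spheroids and 6.68, 13.9, 12.3 and 7.52 CPM in incubation medium spheroids. The 3 groups did not overlap and DMEM/F12 spheroids were highest. It rose by 4.19 (SE 0.30, q = 2.47e-08) and 3.43 (SE 0.32, q = 2.62e-07) on the log2 scale. B3GNT4 (ENSSSCG00025011457), a poly-N-acetyllactosamine enzyme of the same family, went the other way, from 88.4, 68.9, 81.2 and 62.9 CPM in fresh cells to 5.96, 3.72, 1.32 and 2.88 in DMEM/F12 and 8.47, 6.01, 2.83 and 3.76 in incubation medium. Its log2 fold changes of -4.42 (SE 0.32, q = 2.50e-08) and -3.83 (SE 0.30, q = 6.30e-08) were among the largest of all members, and replicate 3 was lowest in each medium.

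B4GALT5 (ENSSSCG00025076572), a lactosylceramide synthase, held 55, 48.1, 61.3 and 40.4 CPM in fresh cells, 148, 141, 178 and 129.9 in DMEM/F12 and 86.6, 117, 131 and 89.7 in incubation medium. Its rises were 1.54 (q = 7.95e-07) and 1.05 (q = 3.27e-05), with all spheroid libraries above all fresh ones. B3GNT7 (ENSSSCG00025001491), which lengthens keratan sulfate chains, held 35.2, 33.5, 32.9 and 42.3 CPM, 124, 100.4, 82 and 132 CPM and 71.3, 74.3, 49.6 and 89.5 CPM in the same order, and rose by 1.61 (q = 1.97e-06) and 0.98 (q = 0.000205). B4GALT7 (ENSSSCG00025059037), which adds the first galactose of the glycosaminoglycan linker, moved little, from 94.7, 89.1, 95.7 and 95.2 CPM to 108, 113, 102 and 110.3 and 108, 115, 112 and 114. The rises of 0.21 (q = 0.0104) and 0.26 (q = 0.00297) were small, and the one in DMEM/F12 was lost when counts were thinned to the smallest library, 0.15 (q = 0.0787), with 0.00124 to 0.0787 over the alternatives. B4GALT2, B4GALT4 and B4GALT6 rose in both media, with log2 fold changes of 1.14, 0.72 and 1.42 in DMEM/F12 and 0.81, 0.76 and 1.74 in incubation medium.

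The falls among elongating enzymes included B3GNT5, which starts lacto-series glycolipids (45.6, 26.2 and 23.7 CPM on average), and B3GNT8 (5.42, 2.37 and 1.49 CPM). They also included B3GALT1, an enzyme of type 1 chains (7.67, 3.7 and 2.1 CPM), and B3GALT4, a ganglioside enzyme (13.2, 8.27 and 5.6 CPM). Each of these 4 fell in both media. B3GNT9 fell in DMEM/F12, -1.17 (q = 0.0103), and was at -0.78 (q = 0.0616) in incubation medium, which became -0.81 (q = 0.0409) with the replicate block, within 0.0409 to 0.16 over the alternatives. B3GNT2, the main poly-N-acetyllactosamine synthase, differed by -0.18 (q = 0.0631) in DMEM/F12. That difference passed without fresh replicate 3 (-0.22, q = 0.0362) and with thinned counts, -0.24 (q = 0.0313), with 0.0313 to 0.383 over the alternatives. In incubation medium B3GNT2 fell, at -0.25 (q = 0.015), and lost its call without fresh replicate 1 or incubation medium replicate 2 (left out one at a time: -0.19, q = 0.0563 to 0.0685) and with no filter, -0.18 (q = 0.131), with 0.00928 to 0.131 over the alternatives.

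B3GALT2 split its libraries by replicate number in every group. It held 0.522, 0.359, 4.86 and 4.31 CPM in fresh cells, 0.487, 0.581, 4.23 and 1.32 in DMEM/F12 and 0.477, 0.4004, 2.95 and 1.88 in incubation medium spheroids, with replicates 3 and 4 the highest in all 3 groups. Its differences of -0.60 (q = 0.526) and -0.78 (q = 0.419) did not pass, and the second became -0.78 (q = 0.0481) with the replicate block, within 0.0481 to 0.844 over the alternatives.

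Sialyltransferases, which cap chains with sialic acid, mostly fell. In DMEM/F12 spheroids 7 of 13 tested fell and 2 rose, and in incubation medium spheroids 10 fell and 1 rose, with medians of -0.63 and -1.09. Beside the 35.7% and 35.8% of all genes that fell, and medians near 0, these values describe the family and are no test of it. The family's summed level did not fall in step. It was 249 to 325 CPM in fresh cells, 199 to 261 in DMEM/F12 and 250 to 312 in incubation medium, and the ranges overlapped. The 1 rise in incubation medium became 3 with no filter, and 2 with the replicate block, with only those 2 groups and without DMEM/F12 replicates 1 or 3. ST6GAL1 (ENSSSCG00025002240), which caps N-glycans with α2,6-linked sialic acid, held 60.05, 58.5, 75.9 and 80.7 CPM in fresh cells. Its level was 27, 27.8, 32.3 and 36.3 CPM in DMEM/F12 and 24, 26.6, 37.4 and 31.6 CPM in incubation medium. All spheroid libraries lay below all fresh ones, and the log2 fold changes were -1.16 (SE 0.15, q = 8.95e-06) and -1.20 (SE 0.15, q = 6.19e-06). ST3GAL5 (ENSSSCG00025076509), GM3 synthase and the first enzyme of most gangliosides, fell from 42.6, 43.6, 34.6 and 42.3 CPM to 6.33, 7.9, 3.44 and 8.04 in DMEM/F12 and 8.71, 11.9, 9.23 and 11.4 in incubation medium. The changes were -2.65 (SE 0.20, q = 3.41e-08) and -1.99 (SE 0.19, q = 3.88e-07), without overlap with fresh cells. ST6GALNAC2 (ENSSSCG00025051772), which adds sialic acid to the inner sugar of O-glycans, fell from 22.3, 26.9, 25.2 and 19.8 CPM to 9.12, 8.83, 10.1 and 7.92 and then 4.29, 4.94, 4.68 and 4.84 CPM in DMEM/F12 and incubation medium. Its 3 groups were fully separated, and the changes were -1.39 (q = 2.75e-07) and -2.33 (q = 3.98e-09).

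ST6GALNAC4 (ENSSSCG00025044270), another enzyme that sialylates O-glycans, rose while ST6GALNAC2 fell. It held 32, 32.5, 41.3 and 37.2 CPM in fresh cells, 96.7, 127, 97.1 and 131 in DMEM/F12 and 161, 163, 184 and 192 in incubation medium, again with 3 separate groups. The rises were 1.66 (SE 0.13, q = 4.09e-08) and 2.29 (SE 0.13, q = 2.35e-09). ST3GAL4 (ENSSSCG00025019827), which caps type 2 chains, was the other rise in DMEM/F12. Its fresh libraries held 13.4, 5.38, 12.2 and 9.8 CPM, those of DMEM/F12 spheroids 21.9, 39, 61.4 and 33 and those of incubation medium spheroids 13.5, 15.1, 21.9 and 13.6. It rose in DMEM/F12 by 1.93 (q = 6.92e-05). In incubation medium all 4 libraries lay above the fresh ones by a narrow margin, the difference was 0.65 (q = 0.0849), and the call depended on the fit. It was 0.63 (q = 0.0296) with the replicate block, 0.65 (q = 0.0388) with only those 2 groups, 0.72 (q = 0.0403) with no filter, and passed without DMEM/F12 replicates 1 or 3 (left out one at a time: 0.67, q = 0.0367 to 0.0426), with 0.0296 to 0.233 over the 19 alternatives.

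Of the 4 tested ST8SIA enzymes, which join sialic acids to each other, 3 fell in both media. ST8SIA6 (ENSSSCG00025065546), which makes disialic acid on O-glycans, held 6.09, 68.7, 18.9 and 53.5 CPM in fresh cells, 0, 6.16, 0.265 and 4.2 in DMEM/F12 and 0, 4.81, 0.123 and 3.49 in incubation medium spheroids. Replicates 2 and 4 were the highest in all 3 groups, and the highest DMEM/F12 library exceeded the lowest fresh one. The log2 fold change was -3.75 (SE 0.91, q = 0.00204) in DMEM/F12 and -4.16 (SE 0.96, q = 0.00132) in incubation medium. It became -4.56 without DMEM/F12 replicate 2 and -4.97 without incubation medium replicate 2, with q of 0.00233 and 0.00182, and the q ran from 4.00e-08 to 0.0302 and from 2.68e-08 to 0.0176 over the alternatives. ST8SIA4, a polysialic acid synthase, fell from a mean of 22.3 CPM to 4.98 and 9.62. ST8SIA1, GD3 synthase, fell from 6.25 CPM to 0.613 and 0.591, close to the floor of 0.349 to 0.403 CPM in spheroid libraries. ST8SIA5, a ganglioside enzyme, had means of 1.61, 1.36 and 0.831 CPM. Its fall in incubation medium, -0.94 (q = 0.0359), lost its call without fresh replicates 1 or 3 or incubation medium replicates 1, 3 or 4 (left out one at a time: -0.93 to -0.77, q = 0.0691 to 0.105), with DESeq2, -0.93 (q = 0.103), and with no filter, -0.88 (q = 0.0858), with 0.0141 to 0.105 over the alternatives.

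Among the remaining α2,3-sialyltransferases, ST3GAL6, which caps type 2 chains, fell in both media, -0.63 (q = 0.00266) and -0.51 (q = 0.00976). ST3GAL2 fell in incubation medium, -1.09 (q = 0.011), and was at -0.46 (q = 0.218) in DMEM/F12. ST3GAL1, which caps core 1 O-glycans, passed in neither, at means of 14.9, 14.1 and 13.3 CPM. ST3GAL3 had means of 8.27, 6.003 and 5.49 CPM, and the libraries of each medium overlapped those of fresh cells. In DMEM/F12 its difference was -0.46 (q = 0.0862), which became -0.47 (q = 0.0305) with the replicate block and -0.64 (q = 0.0366) with thinned counts. It also passed without DMEM/F12 replicate 4 (-0.61, q = 0.0312), with 0.0305 to 0.22 over the alternatives. In incubation medium the gene fell, at -0.59 (q = 0.0318), and lost its call without fresh replicates 3 or 4 or incubation medium replicates 1, 2 or 3 (left out one at a time: -0.59 to -0.45, q = 0.0586 to 0.104) and with no filter, -0.53 (q = 0.0605), with 0.00845 to 0.104 over the alternatives.

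Among fucosyltransferases, FUT8 (ENSSSCG00025007587), the only enzyme of core α1,6-fucose on N-glycans, rose in both media. It held 75.4, 80.3, 72.9 and 68.8 CPM in fresh cells, 173, 196, 247 and 199 in DMEM/F12 and 241, 285, 302 and 267 in incubation medium, with all spheroids above all fresh libraries. The log2 fold changes were 1.45 (SE 0.11, q = 3.96e-08) and 1.88 (SE 0.11, q = 3.98e-09), and counts were not whole in 66.7% of the libraries. FUT11 (ENSSSCG00025032725) held 17.1, 15.2, 13.6 and 16.3 CPM in fresh cells, 15.9, 16.1, 20.9 and 17.9 in DMEM/F12 and 16.3, 23.4, 24.6 and 26.3 in incubation medium. It rose in incubation medium, 0.54 (q = 0.00531), where 1 library lay within the fresh range, and was at 0.19 (q = 0.291) in DMEM/F12. FUT1 (ENSSSCG00025017841), an H antigen enzyme, held 19.3, 10.8, 12.7 and 13.3 CPM, 14.7, 13.9, 15.6 and 11.6 CPM and 13, 10.9, 10.6 and 13.3 CPM in the same order. Its groups overlapped, and the differences of -0.0086 (q = 0.967) and -0.23 (q = 0.24) did not pass.

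Sulfotransferases were few, with 4 tested, of which 1 rose and 1 fell in DMEM/F12 and 1 rose and 2 fell in incubation medium. With thinned counts 0 fell in DMEM/F12 and 1 in incubation medium. CHST1 (ENSSSCG00025031061), which sulfates keratan chains, held 5.4, 12.4, 9.54 and 12.7 CPM in fresh cells, 21.9, 22.8, 19.7 and 28.5 in DMEM/F12 and 19.8, 13.9, 14.2 and 19.1 in incubation medium, and rose by 1.22 (q = 0.000192) and 0.75 (q = 0.00834). CHST3 (ENSSSCG00025076926), a chondroitin 6-sulfotransferase, held 11, 8.43, 6.92 and 12.7 CPM, 9.49, 8.71, 12 and 9.49 CPM and 5.01, 6.54, 9.85 and 7.12 CPM, with overlapping groups. Its differences of 0.024 (q = 0.928) and -0.45 (q = 0.0873) did not pass, and the second passed without fresh replicate 3 or incubation medium replicate 3 (left out one at a time: -0.63 to -0.58, q = 0.0214 to 0.0362), with 0.0214 to 0.272 over the alternatives. CHST7 (ENSSSCG00025064644), of the same activity, held 5.22, 3.05, 3.37 and 2.74 CPM, 2.8, 3.14, 1.72 and 2.76 CPM and 2.27, 1.2, 1.23 and 1.88 CPM. It fell in incubation medium, -1.12 (q = 0.00407), and was at -0.46 (q = 0.161) in DMEM/F12. CHST9, which sulfates N-acetylgalactosamine on the glycans of some hormones, held 1.74, 3.95, 6.54 and 3.14 CPM in fresh cells. No spheroid library exceeded the floor of 3 counts, so it was at least 10.4-fold lower in DMEM/F12 and at least 10-fold lower in incubation medium, computed against the floor per library.

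**Figure D3:**
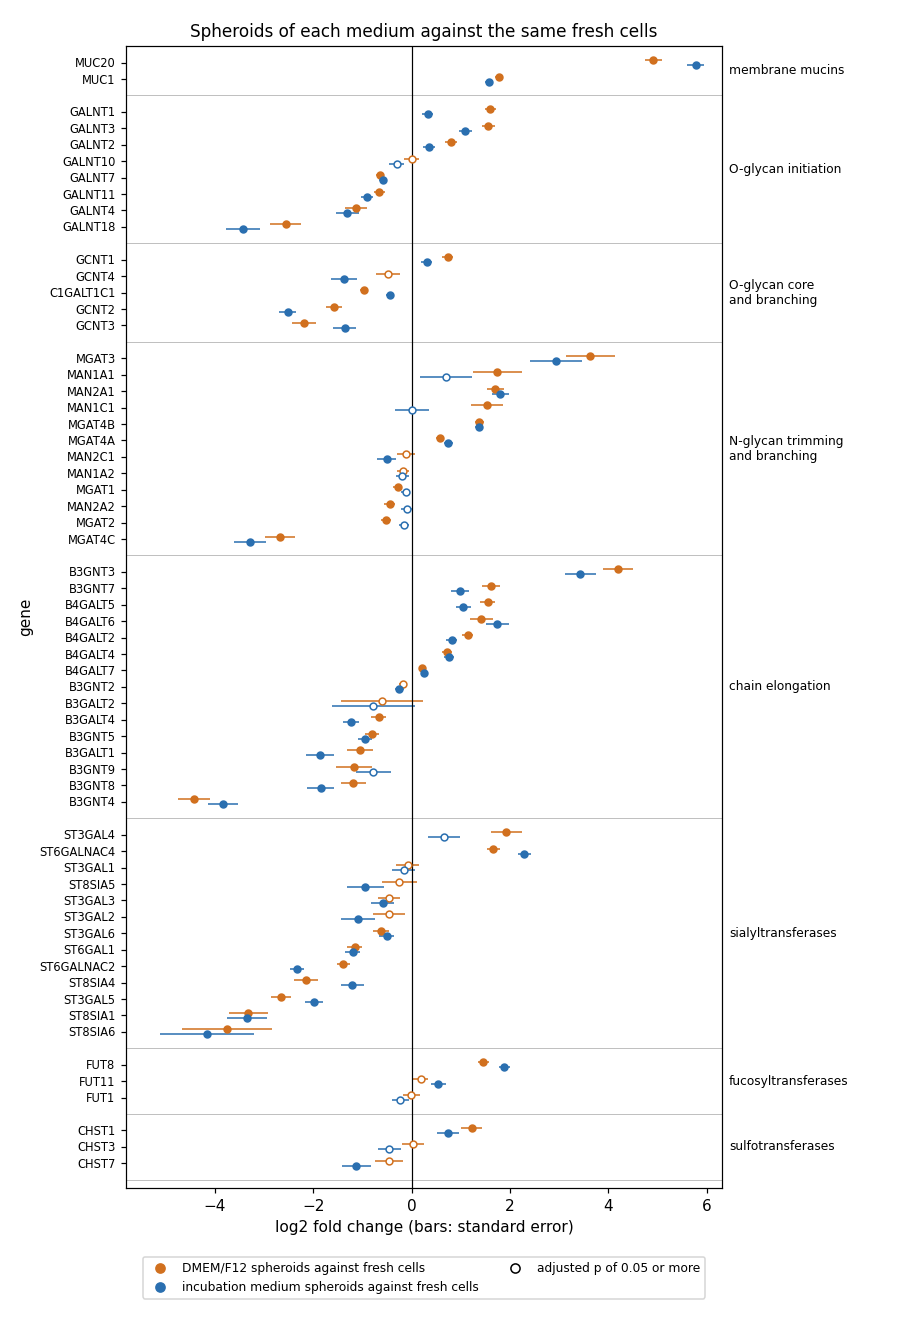
Log2 fold change against fresh cells in DMEM/F12 spheroids (orange) and incubation medium spheroids (blue) by role, for the tested members other than GALNT15 and CHST9, which were at the floor. Bars are 1 SE, and open points did not pass the test. MUC20 lies farthest to the right in both media, and B3GNT4 and ST8SIA6 farthest to the left.

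The 2 kinds of spheroid were then compared directly, as incubation medium minus DMEM/F12. Of the 63 tested members 9 were higher and 15 lower in incubation medium, beside 12.7% and 12.3% of all tested genes. No rise and 4 falls reached 2-fold, beside 2.06% and 3.38% of all genes, and the groups did not overlap for 17 members, beside 26.9%. The share called in either direction was 38.1%, beside 25% of all genes, and the median log2 difference over the members was -0.20, beside -0.0035 over all tested genes. Scaling mattered here. With library totals in place of TMM the members divided into 6 higher and 17 lower, and all genes into 1239 higher and 2471 lower, so that 33.4% of all calls were higher in place of 50.9%, and the median over all genes moved to -0.0973.

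MUC20 was higher in incubation medium, 0.86 (SE 0.10, q = 5.47e-05), as were ST6GALNAC4, 0.63 (q = 0.00149), C1GALT1C1, 0.53 (q = 0.000484), and FUT8, 0.43 (q = 0.00916). ST8SIA4 was higher too, 0.94 (q = 0.0142). MUC1 had a difference of -0.20 (q = 0.102) and did not pass, although it did with library totals, -0.30 (q = 0.0267), with 0.0267 to 0.249 over the 19 alternatives. MGAT2 was higher by 0.38 (q = 0.0129) and lost its call with library totals, 0.28 (q = 0.065), with 0.00503 to 0.065 over the alternatives. The 4 falls of at least 2-fold were MAN1C1, -1.53 (SE 0.31, q = 0.00236), GALNT1, -1.28 (SE 0.10, q = 3.23e-06), ST3GAL4, -1.27 (SE 0.29, q = 0.0052), and GALNT15. The last was at or under the floor in all incubation medium libraries, at least 6.25-fold lower. Also lower were ST6GALNAC2, -0.94 (q = 0.000321), GCNT2, -0.94 (q = 0.00113), B3GNT3, -0.76 (q = 0.0147), and GCNT1, -0.43 (q = 0.0121).

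Of the 23 members called between the media other than GALNT15, 10 lost their call when some single library was left out. The higher level of GCNT3, 0.82 (q = 0.0257), lost its call without DMEM/F12 replicates 1 or 2 or incubation medium replicates 2 or 3 (left out one at a time: 0.71 to 0.79, q = 0.0626 to 0.076), with 0.00617 to 0.076 over the 19 alternatives. That of ST3GAL5, 0.67 (q = 0.0303), lost its call without DMEM/F12 replicate 1 or incubation medium replicates 2 or 4 (left out one at a time: 0.60 to 0.66, q = 0.0604 to 0.084), with library totals, 0.57 (q = 0.0643), and with only those 2 groups, 0.67 (q = 0.0644), with 0.00444 to 0.084 over the alternatives. That of MAN2A2, 0.35 (q = 0.0333), lost its call without DMEM/F12 replicates 1, 2 or 3 or incubation medium replicates 1 or 3 (left out one at a time: 0.24 to 0.36, q = 0.0642 to 0.11), with 0.0238 to 0.112 over the alternatives, which include 4 further fits without the call. On the lower side, GCNT4, -0.89 (q = 0.022), lost its call without DMEM/F12 replicates 2 or 3 or incubation medium replicates 1 or 4 (left out one at a time: -0.83 to -0.79, q = 0.0571 to 0.0637), with 0.0118 to 0.0637 over the alternatives. GALNT2, -0.43 (q = 0.0169), lost its call without DMEM/F12 replicate 1 or incubation medium replicate 2 (left out one at a time: -0.35 to -0.33, q = 0.0575 to 0.0589), and GALNT3, -0.46 (q = 0.0154), without incubation medium replicate 2 (-0.42, q = 0.0506), with 0.00144 to 0.0589 and 0.00189 to 0.0506 over the alternatives. GALNT2 and GALNT3 had both risen against fresh cells in both media. B3GNT7, -0.62 (q = 0.0153), lost its call without DMEM/F12 replicate 4 (-0.52, q = 0.054), with 0.00013 to 0.054 over the alternatives. B3GALT4, -0.56 (q = 0.016), lost its call without DMEM/F12 replicate 1 or incubation medium replicate 3 (left out one at a time: -0.48 to -0.47, q = 0.0509 to 0.0557) and with thinned counts, -0.41 (q = 0.11), with 0.00929 to 0.11 over the alternatives. B4GALT5, -0.49 (q = 0.0281), lost its call without DMEM/F12 replicates 1 or 3 or incubation medium replicates 1 or 4 (left out one at a time: -0.50 to -0.39, q = 0.0503 to 0.0858), with 0.000844 to 0.0858 over the alternatives. B4GALT2, -0.33 (q = 0.0331), lost its call without DMEM/F12 replicates 2, 3 or 4 or incubation medium replicates 2 or 4 (left out one at a time: -0.34 to -0.26, q = 0.0542 to 0.107) and with thinned counts, -0.31 (q = 0.0559), with 0.00847 to 0.107 over the alternatives.

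Other members passed only under an alternative. MAN1A1 was at -1.05 (q = 0.101), and at -1.11 (q = 0.000746) with the block; it passed without incubation medium replicate 2 (-1.50, q = 0.0353), with 0.000746 to 0.266 over the alternatives. MGAT3 was at -0.70 (q = 0.168), and at -0.78 (q = 0.0464) with the block, and passed without incubation medium replicate 4 (-1.30, q = 0.0022), with 0.0022 to 0.366 over the alternatives. For both genes the spread inside the incubation medium group was wide, with MAN1A1 at 1.34 to 5.74 CPM and MGAT3 at 2.58 to 10.3 CPM. CHST1, -0.47 (q = 0.109), became -0.46 (q = 0.0468) with the block and -0.47 (q = 0.0471) with only those 2 groups, and passed without fresh replicate 1 (-0.47, q = 0.0394), with 0.0394 to 0.281 over the alternatives. B3GALT1, -0.81 (q = 0.0543), became -0.81 (q = 0.0208) with the block, -0.90 (q = 0.032) with library totals and -0.97 (q = 0.032) with thinned counts, and passed without fresh replicate 1 or DMEM/F12 replicate 4 (left out one at a time: -0.94 to -0.81, q = 0.0402 to 0.047), with 0.0208 to 0.149 over the alternatives. GALNT11, -0.25 (q = 0.149), became -0.25 (q = 0.0447) with the block, with 0.0447 to 0.363 over the alternatives. Leaving out 1 library let 5 more members pass. These were GALNT18, -0.87 (q = 0.109), without DMEM/F12 replicate 3 (-1.14, q = 0.0166), and MGAT4C, -0.60 (q = 0.235), without DMEM/F12 replicate 3 (-0.86, q = 0.0345). FUT11, 0.35 (q = 0.0917), passed without incubation medium replicate 1 (0.48, q = 0.0129), CHST3, -0.48 (q = 0.132), without incubation medium replicate 3 (-0.67, q = 0.0421), and MAN2C1, -0.39 (q = 0.136), without incubation medium replicate 4 (-0.63, q = 0.0067). Their q over the alternatives ran from 0.0166 to 0.328 for GALNT18, 0.0345 to 0.583 for MGAT4C, 0.0129 to 0.23 for FUT11, 0.0421 to 0.303 for CHST3 and 0.0067 to 0.328 for MAN2C1.

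**Figure D4:**
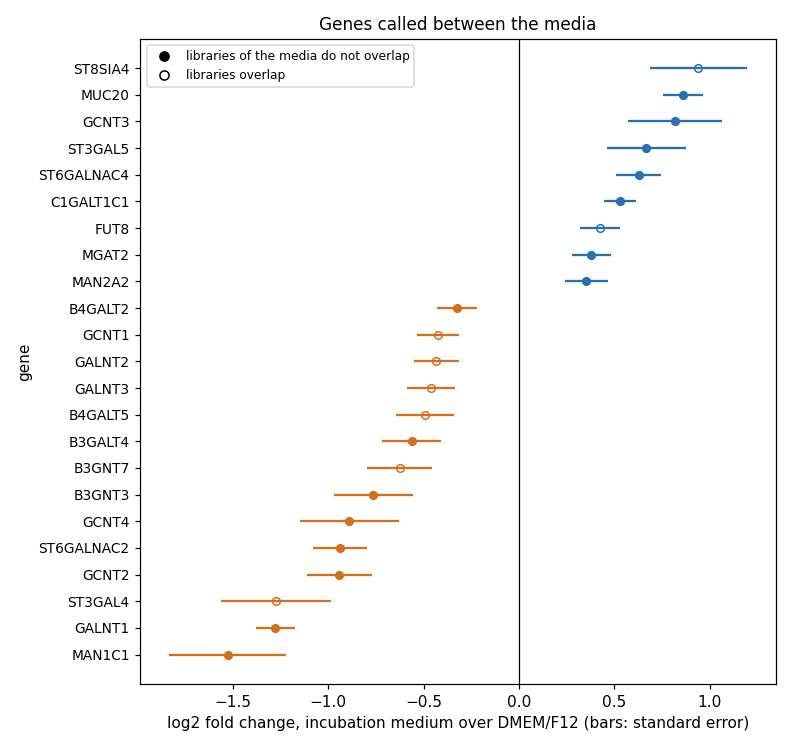
Log2 difference of incubation medium spheroids minus DMEM/F12 spheroids, with 1 SE as bars, for the members called between the media other than GALNT15. Filled points mark genes whose libraries do not overlap between the media. ST8SIA4 and MUC20 lead the higher side, and MAN1C1, GALNT1 and ST3GAL4 the lower side.

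Genes that supply or surround these enzymes were taken from lists drawn up by known function. Their counts stand beside 35.1% of all tested genes that rose and 35.7% that fell in DMEM/F12, 35.8% each way in incubation medium, and 12.7% higher and 12.3% lower between the media, and describe the lists without testing them. Of 21 tested genes for nucleotide sugars and sulfate donors, 7 rose and 6 fell in DMEM/F12 spheroids, 11 rose and 4 fell in incubation medium spheroids, and 4 were higher and 1 lower in incubation medium than in DMEM/F12. The 6 falls became 3 without fresh replicate 3, with library totals and with no filter. Between the media the counts were 7 and 3 with the replicate block and 2 and 3 with library totals, and the 1 lower became 2 without fresh replicate 4, DMEM/F12 replicate 4 or incubation medium replicate 3, with thinned counts and with only those 2 groups. PAPSS2, which makes the sulfate donor PAPS, had the largest rise, from a mean of 2.82 CPM to 19.4 and 34 (log2 2.78 and 3.59). UAP1, which makes UDP-N-acetylglucosamine, had the largest fall, from 155 CPM to 67.4 and 70.4 (log2 -1.21 and -1.14). TSTA3, of GDP-fucose synthesis, rose from 92.3 CPM to 174 and 233. Of 13 tested nucleotide sugar transporters, 7 rose and 1 fell in DMEM/F12, 8 rose and 2 fell in incubation medium, and 2 were higher and 0 lower between the media by q. The fall in DMEM/F12 was lost without fresh replicate 3 and with no filter. The 2 falls in incubation medium became 0 without incubation medium replicate 3 and with no filter, and 1 without fresh replicates 1 or 3 or incubation medium replicates 2 or 4 and with DESeq2. Between the media 1 was higher and 1 lower with library totals, and 1 was lower without incubation medium replicate 4. SLC35A2, the UDP-galactose transporter, rose from 58.4 CPM to 99.5 and 133, and SLC35C1, the GDP-fucose transporter, from 53.5 CPM to 94.7 and 85.2. Median log2 fold changes in DMEM/F12, in incubation medium and between the media were 0.21, 0.58 and 0.16 for the donors, and 0.67, 0.67 and 0.056 for the transporters.

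Of 24 tested genes for the dolichol-linked precursor and its transfer to proteins, 8 rose and 8 fell in DMEM/F12, 13 rose and 5 fell in incubation medium, and 6 were higher in incubation medium than in DMEM/F12. The last count became 3 without DMEM/F12 replicate 4 or incubation medium replicate 3 and with library totals. DHDDS, of dolichol synthesis, fell from 417 CPM to 163 and 189, while MPDU1, of dolichol-linked mannose use, rose from 16.4 CPM to 38 and 42.7. Of 10 tested genes of glycan trimming and folding in the endoplasmic reticulum, 3 rose and 3 fell in DMEM/F12, 4 rose and none fell in incubation medium, and 6 were higher in incubation medium than in DMEM/F12. In incubation medium 1 fell without fresh replicate 2, with library totals and with thinned counts. UGGT1, which marks misfolded glycoproteins for another round of folding, rose from 18.6 CPM to 28.9 and 40.1. Glycosaminoglycan genes divided, 6 up and 6 down of 19 in DMEM/F12, 6 up and 7 down in incubation medium, and 1 higher and 4 lower between the media. DSE, dermatan sulfate epimerase, rose from 6.78 CPM to 63.3 and 43.7. Of 11 lysosomal enzymes that take glycans apart, 4 rose and 3 fell in DMEM/F12, 4 rose and 5 fell in incubation medium, and 2 were higher and 1 lower between the media. The 3 falls became 5 with thinned counts. Between the media the 2 higher became 0 without DMEM/F12 replicates 2 or 3 or incubation medium replicates 1 or 2, with library totals and with no filter. They became 1 without any other single library apart from fresh replicates 1 and 2, with DESeq2, with thinned counts and with only those 2 groups. The 1 lower became 0 without DMEM/F12 replicates 1 or 4 or incubation medium replicate 2, 2 without incubation medium replicate 4 and with the replicate block, and 3 with library totals. CTSA, which protects lysosomal sialidase, rose from 20.2 CPM to 72.5 and 66.4. The medians in the same 3 comparisons were -0.00080, 0.26 and 0.18 for the dolichol pathway, -0.13, 0.28 and 0.39 for the trimming and folding genes. They were -0.17, 0.0013 and -0.17 for the glycosaminoglycan genes, -0.14, -0.11 and -0.13 for the lysosomal enzymes.

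Genes of mucus granules and of mucous cells formed the last list. Of 10 tested, 7 fell and 2 rose in DMEM/F12 spheroids, 6 fell and 3 rose in incubation medium spheroids, and 5 were higher in incubation medium than in DMEM/F12. The list's medians were -1.43, -0.85 and 0.81. TFF3, a peptide secreted with mucins, had 223, 283, 461 and 226 CPM in fresh cells, 10.7, 14.9, 17.3 and 12 in DMEM/F12 and 39.6, 66.1, 57.2 and 45.3 in incubation medium. It fell in both, -4.44 (q = 4.13e-09) and -2.52 (q = 3.03e-07), and was higher in incubation medium than in DMEM/F12, 1.92 (q = 0.000107). SPDEF, a transcription factor of goblet cells, had means of 55.8, 7.98 and 28.1 CPM, with changes of -2.80 (q = 1.65e-09) and -0.99 (q = 1.28e-05), and 1.81 (q = 3.30e-06) between the media. AGR2, which helps mucins fold, had means of 195, 37.3 and 119 CPM. Its fall in incubation medium, -0.71 (q = 0.0287), lost its call without fresh replicates 1 or 3 or incubation medium replicates 1, 2 or 3 (left out one at a time: -0.66 to -0.56, q = 0.0632 to 0.0921), with 0.0066 to 0.0921 over the alternatives. XBP1, a regulator of the secretory apparatus, fell from 434 CPM to 151 and 179, whereas CREB3L1, a membrane-bound transcription factor, rose from 7.72 CPM to 34.8 and 63.2. These falls stand beside those of the secretory cell markers given above, and the part of cell makeup was not tested.

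**Figure D5:**
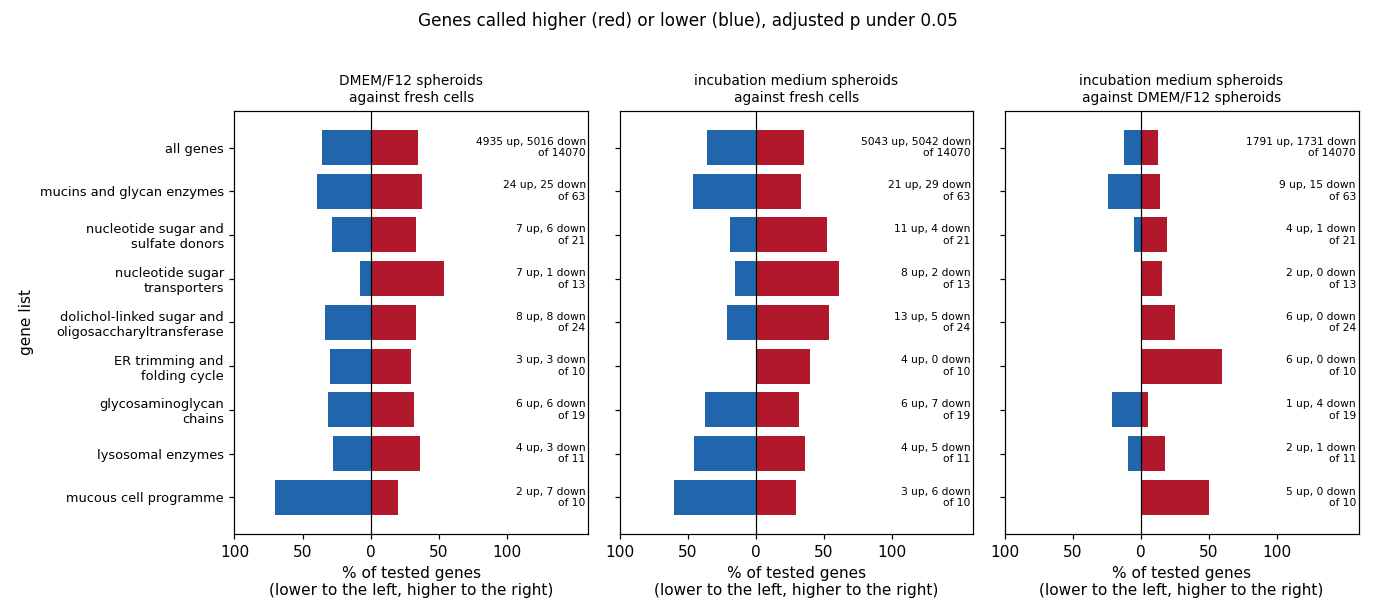
Percent of tested genes called higher (red, right) and lower (blue, left) in the 3 comparisons, for all genes, for the mucins and glycan enzymes and for each list of surrounding genes, with the counts printed. The mucous cell list has 7 falls of 10 genes in DMEM/F12 spheroids, and the transporters 7 rises and 1 fall of 13.

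Low counts kept 12 members from being tested. GALNT9 had 0 counts in all 12 libraries, which allows up to 3 counts in each. ST6GALNAC1, the sialyl-Tn synthase, held 2.09, 1.61, 0.935 and 1.76 CPM in fresh cells, had 0 counts in all 4 DMEM/F12 libraries and held 0.835, 0, 0.369 and 0.134 CPM in incubation medium spheroids. MGAT4D held 3.31, 1.61, 1.68 and 0.784 CPM in fresh cells and at most 0.581 and 0.615 CPM in DMEM/F12 and incubation medium spheroids. For both genes the fresh libraries lay above all spheroid libraries, without a test. The highest single library was 1.57 CPM for MAN2B2, 1.72 for GALNT16, 1.32 for B3GALT6, 0.929 for GCNT7 and 0.696 for CHST8. FUT7 and FUT9, which make Lewis x structures, reached at most 0.24 and 0.12 CPM, and ST8SIA2 and ST8SIA3 at most 0.269 and 0.196 CPM. At this depth such levels cannot be ranked between groups. Floors cover counting error only.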

How the data were processed

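RNA from 12 libraries of pig oviduct epithelial cells (4 per group) was sequenced from the poly(A) end. Per the submitters' processing notes, fastp 0.24.0, STAR 2.7.11, SAMtools 1.22.1, featureCounts and Subread 2.1.1 were used. The genome build is not given in the sources used here, and 0 gene identifiers matched the pig gene tables at hand; symbols are those of the deposited file, and positions and sequences are not given. The authors deposited expected counts per gene, with 19.1 to 20.5% of nonzero values not whole, and CPM, which equalled count over library total to within 5e-06, per the file headers and values. Raw counts had been planned for, so the deposited expected counts were rounded to whole numbers. Spike-in rows (92) held at most 0.00061% of counts and were left out.

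Tests used edgeR 4.0.16 (limma 3.58.1, R 4.3.3): filterByExpr by group, TMM, and quasi-likelihood tests from a single model of the 12 libraries with a mean per group, adjusted by Benjamini-Hochberg (q) over 14070 genes. The biological coefficient of variation was 0.146. Total counts were 5045187 to 8603774, and precision is limited by counting error below about 3 counts, the floor. Printed CPM use TMM-scaled library sizes. The alternatives were DESeq2 1.42.0, library totals, no filter, only the 2 groups compared, thinned counts, counts not rounded, a replicate block and each library left out. There were 19 in all for most genes, and 17 or 18 for some genes of low level, among them ST8SIA5, ST3GAL2 and B3GALT2. Fits that gave such a gene no q are not in its range. The test was also run on simulated counts of 14070 genes, with 100 genes changed 2-fold and 100 changed 4-fold in DMEM/F12. It recovered 88 and 96 of them, with 12 false calls among 196. That simulation used a common spread for all genes, no replicate effect and far fewer changed genes than were called here. It therefore cannot check the test in the setting of these data.

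Replicate numbers come from the titles, which do not say what a number marks. Deviations of same-numbered libraries from their group means correlated at 0.196 to 0.293 between fresh cells and spheroids and at 0.394 to 0.516 between media, each highest with its own number, so the numbers were taken to pair the libraries. The main fit nevertheless held no block for the number, so every q printed without a named setting is unpaired. Pairing entered only through the replicate block among the alternatives. Values in every library are given for tested mucins, the 3 members of highest mean CPM in each role, and the 5 largest rises and falls in each comparison among non-overlapping members with a mean of at least 5 CPM. From surrounding lists, genes were named by highest level or largest called change. B3GALT2 and the untested members shown by library, and AGR2, SPDEF, XBP1, CREB3L1 and TFF3 where outside that rule, were chosen after their values were seen. Members and lists were chosen with earlier results of these data known.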

Additional observations from a re-analysis of the deposited data

Results flagged for a closer look

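A single library stood apart from the other 3 of its group, with a gap that, over the group's range, exceeded Dixon's critical value, in 12 of 185 member groups with detectable levels (6.49%). Chance alone gives about 1 in 20. GCNT2 held 47.8 CPM in DMEM/F12 replicate 1, above 31 to 32.7 in the other 3. GALNT2 was at 119.6 CPM in incubation medium replicate 2, below 151 to 154 in the other 3. GALNT7 stood at 60.2 CPM in DMEM/F12 replicate 3, above 49.5 to 50.8 in the other 3. GALNT7 held 57.4 CPM in incubation medium replicate 1, above 53.5 to 54.1 in the other 3. GALNT10 was at 9.78 CPM in incubation medium replicate 1, above 7.39 to 7.74 in the other 3. B4GALT7 stood at 89.1 CPM in fresh replicate 2, below 94.7 to 95.7 in the other 3. B3GNT3 held 19.5 CPM in DMEM/F12 replicate 3, above 16.1 to 16.5 in the other 3. B4GALT6 was at 2.24 CPM in fresh replicate 3, above 1.74 to 1.79 in the other 3. B3GNT9 stood at 0.597 CPM in incubation medium replicate 1, below 2.09 to 2.28 in the other 3. ST3GAL5 held 34.6 CPM in fresh replicate 3, below 42.3 to 43.6 in the other 3. ST3GAL1 was at 11.2 CPM in DMEM/F12 replicate 1, below 14.8 to 15.1 in the other 3. ST8SIA1 stood at 1.19 CPM in incubation medium replicate 1, above 0.369 to 0.403 in the other 3. Of these 12, 4 were in incubation medium replicate 1.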

How the results depend on the processing

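The counts over all 63 tested members and over all genes called stayed within 1.5 times under the alternatives tried, whereas counts of single families and lists moved by more, as given beside those printed. Over DESeq2, library totals, no filter, only the 2 groups compared, thinned counts, counts not rounded, the replicate block and each library left out, members called higher and lower in DMEM/F12 against fresh cells numbered 22 to 24 and 24 to 27. The counts were 20 to 23 and 26 to 31 in incubation medium against fresh cells and 6 to 10 and 12 to 20 between the media. With the replicate block they were 24 and 26, 23 and 31, and 9 and 20, and the block changed the call of no member other than those given beside their results. The list genes it added include HEXA in DMEM/F12 and GFPT1 and XBP1 between the media. Depth limits the members with means under a few CPM, and the causes of lost or turned values were not tested.

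Signs changed only for differences that did not pass the test. They turned with DESeq2, FUT1 0.013 (DMEM/F12 against fresh); with library totals in place of TMM, FUT1 0.069 (DMEM/F12 against fresh), DDOST 0.0015 (DMEM/F12 against fresh), MAN1C1 -0.013 (incubation medium against fresh), GALNT7 -0.036 (between the media), B4GALT7 -0.050 (between the media), B4GALT4 -0.052 (between the media), UAP1 -0.026 (between the media), SLC35A5 -0.035 (between the media) and NDST3 -0.035 (between the media). They turned also with no filter on low counts, FUT1 0.064 (DMEM/F12 against fresh); with replicate block, FUT1 0.0056 (DMEM/F12 against fresh) and MAN1C1 -0.0044 (incubation medium against fresh); with counts thinned to the smallest library, GALNT10 -0.081 (DMEM/F12 against fresh), OSTC -0.022 (DMEM/F12 against fresh), MAN1C1 -0.094 (incubation medium against fresh), ST8SIA1 0.52 (between the media) and B4GALT4 -0.051 (between the media); with only the 2 groups compared, MAN1C1 -0.0013 (incubation medium against fresh). Leaving out single libraries turned further small differences, with these ranges. For DMEM/F12 against fresh: FUT1 -0.11 to 0.19, DDOST -0.13 to 0.0037, GALNT10 -0.054 to 0.075, CHST3 -0.10 to 0.17, OSTC -0.036 to 0.070 and ST3GAL1 -0.18 to 0.10. For incubation medium against fresh: MAN1C1 -0.13 to 0.17, GFPT1 -0.11 to 0.026 and ST3GAL1 -0.28 to 0.020. Between the media: ST8SIA1 -0.62 to 0.54, ST8SIA6 -1.23 to 0.42, B3GALT2 -0.82 to 0.83, MAN1A2 -0.10 to 0.043, SLC35B1 -0.11 to 0.055, SLC35B4 -0.12 to 0.073, NDST3 -0.18 to 0.37, ST6GAL1 -0.17 to 0.049, MGAT4B -0.027 to 0.034, ST3GAL3 -0.32 to 0.040, ST3GAL1 -0.22 to 0.051, B4GALT4 -0.0050 to 0.10, SLC35A5 -0.0015 to 0.15 and UAP1 -0.024 to 0.20.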

Other observations

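Some members had the same 2 replicate numbers highest in all 3 groups. They were picked after their values were seen. ST8SIA6 was highest in replicates 2 and 4 and B3GALT2 in replicates 3 and 4 of each group. MAN1A1 held 2.09, 3.41, 1.31 and 0.784 CPM in fresh cells, 7.66, 9.41, 4.76 and 3.96 in DMEM/F12 and 3.94, 5.74, 1.48 and 1.34 in incubation medium spheroids, with replicates 1 and 2 above replicates 3 and 4 in each group. The labels do not say what a replicate number shares.

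B3GNT4, MGAT4C and GALNT18 fell in spheroids and were picked after their values were seen. Each was lowest in replicate 3 of both spheroid groups. The summed multiciliated cell markers were lowest there too, at 327, 216, 131 and 175 CPM in DMEM/F12 replicates 1 to 4 and 237, 179, 132 and 171 CPM in incubation medium replicates 1 to 4. Stromal markers were also lowest there, at 32.8, 27.2, 11.2 and 34 CPM in DMEM/F12 and 7.75, 9.21, 5.78 and 11.3 CPM in incubation medium. Secretory cell markers were lowest in replicate 3 of DMEM/F12 (482 CPM) but in replicate 2 of incubation medium (591 CPM). Other members that fell differed, with ST6GAL1 and GCNT3 each lowest in replicate 1 of both spheroid groups. In fresh cells the multiciliated sum was highest in replicate 1, at 1269.7 CPM, and lowest in replicate 2, at 1087 CPM. The stromal sum was lowest in fresh replicate 3, at 58.5 CPM. Among the fresh libraries GALNT18 was lowest in replicate 1, B3GNT4 in replicate 4 and MGAT4C in replicate 3. With 4 libraries a group no relation was tested.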
